A study of Mus musculus with 20 samples.

Results

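Genes of the cell cycle and of DNA replication were described in the livers of 20 male C57BL/6J mice, 8 weeks old, each measured on 1 Affymetrix 3' expression array. The 10 mice of the HFD group had eaten a diet with 45 kcal% fat for 4 weeks, and the 10 mice of the MSXH group that same diet with 0.02% of an extract of maple syrup which the labels call MSXH. All of them were fasted for 16 h before the liver was taken. The mice fed the low-fat diet or 0.05% MSXH were not analysed here. The 35 genes were listed by name and taken wherever a probe set, a group of short array probes read out as 1 value, carried that symbol and no other. This gave 34 genes and 78 probe sets, out of 18193 genes and 34945 probe sets with exactly 1 symbol. Ccnb1, which encodes the mitotic cyclin B1, had no such probe set and has no value here. Where a gene had several probe sets, the one of highest mean level stands for it, and the others are compared with it below.

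A dividing cell copies its DNA once, in S phase, and then separates the copies in mitosis. Cyclins bound to cyclin-dependent kinases drive both steps, E2F factors switch on the replication genes at the end of G1, and FOXM1 with the MuvB complex switches on the mitotic genes later. The inhibitors p21 (Cdkn1a) and p27 (Cdkn1b) hold the kinases back. Hepatocytes of an adult liver rarely divide outside of regeneration, so much of what a whole-liver sample holds of these transcripts can come from few cells or from other cell types. In such bulk RNA, fewer cells of a type and less RNA per cell cannot be told apart. The 34 measured genes were sorted into 11 replication genes, 16 mitotic genes, 5 genes of G1 and S phase control and 2 inhibitors.

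The promoters of replication and mitotic genes held different letters. RefSeq promoters on GRCm38.p6, from 250 bases before to 50 bases after the start, were given for 27 of the 35 genes and were searched on both strands. TTTGAA, the letters of the cell cycle genes homology region (CHR) where MuvB can bind, was in 10 of 13 mitotic genes (76.9%), in 1 of 10 replication genes, and in 20.2% of 27025 genes overall. CCAAT, the letters bound by NF-Y, was in 12 of 13 mitotic and 8 of 10 replication genes, against 41.1% overall. Both together were in 10 of 13 mitotic genes, against 8.97% overall. The E2F letters TTTGGCGC, TTTCGCGC, TTTCCCGC or TTTGCCGC were in 4 of 10 replication genes (Mcm3, Mcm5, Mcm6 and Mcm7), in 1 of 13 mitotic genes (Cdk1), and in 2.6% overall. A match of letters is a description and no binding was measured. 5 promoters are shown, with matches in capitals. Mcm5 (chr8:75109259-75109558, plus strand) has E2F letters on both strands, overlapping by 4 bases, and CCAAT 3 times. Mcm2 (chr6:88898731-88899030, minus strand) has 1 CHR and 1 CCAAT match, as Kif11 (chr19:37376132-37376431, plus strand) has. Mki67 (chr7:135716330-135716629, minus strand) has 2 CHR and 3 CCAAT matches. Cdkn1a (chr17:29090729-29091028, plus strand), whose level differed most between mice, has none of these letters in its window.
Mcm5: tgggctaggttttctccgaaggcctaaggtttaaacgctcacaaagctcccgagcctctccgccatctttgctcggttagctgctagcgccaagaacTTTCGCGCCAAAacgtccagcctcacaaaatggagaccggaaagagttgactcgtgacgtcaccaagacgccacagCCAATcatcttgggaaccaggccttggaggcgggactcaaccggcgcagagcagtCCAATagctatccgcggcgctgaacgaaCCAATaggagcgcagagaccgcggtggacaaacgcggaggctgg
Mcm2: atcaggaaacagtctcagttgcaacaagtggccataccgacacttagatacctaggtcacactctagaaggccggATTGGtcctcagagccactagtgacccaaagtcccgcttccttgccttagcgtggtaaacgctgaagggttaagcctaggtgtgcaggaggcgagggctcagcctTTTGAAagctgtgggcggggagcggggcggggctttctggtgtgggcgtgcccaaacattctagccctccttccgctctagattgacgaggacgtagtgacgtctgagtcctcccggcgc
Kif11: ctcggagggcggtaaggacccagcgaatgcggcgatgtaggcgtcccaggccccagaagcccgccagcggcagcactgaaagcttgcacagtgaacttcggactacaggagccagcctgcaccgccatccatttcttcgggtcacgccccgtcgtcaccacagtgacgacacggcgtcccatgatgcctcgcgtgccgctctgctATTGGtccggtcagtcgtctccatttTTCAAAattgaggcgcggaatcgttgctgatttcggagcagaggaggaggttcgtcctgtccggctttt
Mki67: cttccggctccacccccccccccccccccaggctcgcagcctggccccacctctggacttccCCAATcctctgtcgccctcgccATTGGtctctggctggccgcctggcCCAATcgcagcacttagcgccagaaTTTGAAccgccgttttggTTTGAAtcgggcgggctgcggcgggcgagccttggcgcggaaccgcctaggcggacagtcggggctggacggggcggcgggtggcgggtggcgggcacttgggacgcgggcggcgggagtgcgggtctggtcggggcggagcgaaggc
Cdkn1a: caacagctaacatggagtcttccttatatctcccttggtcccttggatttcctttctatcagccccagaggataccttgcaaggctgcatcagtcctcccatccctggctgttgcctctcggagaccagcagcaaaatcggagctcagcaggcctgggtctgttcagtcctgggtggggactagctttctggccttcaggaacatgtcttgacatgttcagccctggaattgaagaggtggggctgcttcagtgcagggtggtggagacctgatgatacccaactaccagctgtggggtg

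The deposited values lay between 5.173 and 15.01 on a scale taken as log2, with array medians between 6.52156 and 6.52255. Between mice they were compressed: over all probe sets the median SD was 1.07e-05, and 97.6% had an SD under 0.001. A difference is therefore given as a standardized difference, MSXH minus HFD over the pooled SD within groups, with its 95% interval, and never as a fold of RNA. How precise a group mean is depends here on the spread between mice and on how many arrays there are. Liver markers were high, with Alb, Apoa1, Ttr, Cps1, Tat and Cyp2e1 at mean levels from 11.46 to 14.71. The summed level of 7 skeletal muscle genes ran from 44.722 to 45.504 in HFD and from 44.781 to 63.256 in MSXH, where mice 4 and 6 stood apart, so counts are also given without these 2 arrays.

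Of the 34 genes, 17 lay under the median of every array and 17 above it, beside 35.4% of all genes under it. With the mean of probe sets 23 of 34 lay under it, and 25 of 34 lay under the median over genes. The 35.4% holds for the probe set of highest mean, and no share of all genes is given for the mean of probe sets. Under every array median lay 5 of 11 replication genes, namely Mcm2, Mcm3, Mcm5, Mcm6 and Tyms. So did 11 of 16 mitotic genes: Ccnb2, Foxm1, Mki67, Top2a, Bub1, Aurka, Aurkb, Plk1, Birc5, Kif11 and Kif20a. Of the G1 and S phase genes only Ccne2, cyclin E2, lay under it, at 5.73, and neither inhibitor did. Nearest to the line were Foxm1 at 6.519 and Mcm2 at 6.502 just under it, and Bub1b at 6.56 and Cdk1 at 6.574 just above it. The genes above it included Pcna, the sliding clamp of the DNA polymerases, at 9.47, Mcm7 at 8.23, Tk1 at 7.602, Rrm1 at 7.157, and Cdc20, an activator of the anaphase-promoting complex, at 7.274. Over all probe sets of these genes, 53 of 78 lay under every array median: 22 of 31 for replication, 26 of 32 for mitosis, 4 of 11 for G1 and S phase control and 1 of 4 for the inhibitors. The array medians were taken over all probe sets of the array. No share of all probe sets under them is given here, and the 35.4% does not apply to these counts. Levels of different probe sets are set here against the array median and not against each other, since each has its own probes.

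**Figure D1:**
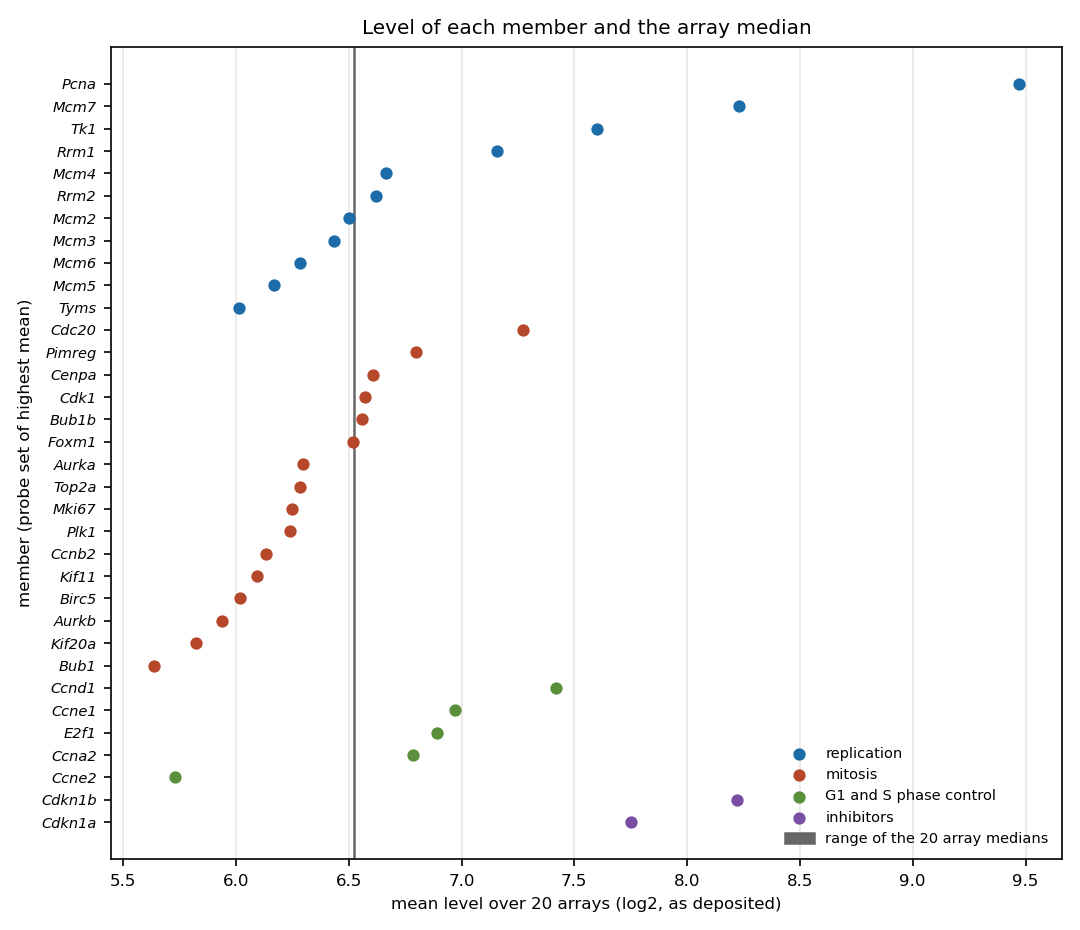
Mean level over the 20 arrays (log2 as deposited, horizontal axis) of the probe set that stands for each of the 34 genes (rows, coloured by role), with the narrow band of the 20 array medians. 17 genes lie left of the band and 17 right of it. The mitotic genes are mostly left of it, and both inhibitors are right of it.

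Comparing the diets asks how the extract, added to a high-fat diet, affected these genes. No gene of the 34 passed an adjusted p of 0.05 in limma (adjusted by Benjamini and Hochberg's method over the whole array), where 0% of 18193 genes passed, and the smallest adjusted p among them was 0.142. At an unadjusted limma p under 0.05 there were 8 of 34 (23.5%), beside 10.9% of all genes. Of these, 4 were higher in MSXH (6.58% of all genes were) and 4 were lower (4.31% of all genes were). That share moved with the choice of probe set: averaging over the probe sets per gene, 4 of 34 (11.8%) were under 0.05, beside 11% of all genes. In direction, 20 of 34 (58.8%) were higher in MSXH, beside 54.7% of all genes, and the median standardized difference was 0.131, beside 0.0669 over all genes. Single arrays moved that median: it was 0.00474 without HFD 4, 0.0792 without MSXH 8, 0.0813 without MSXH 9, 0.212 without MSXH 5 and 0.231 without HFD 9.

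**Figure D2:**
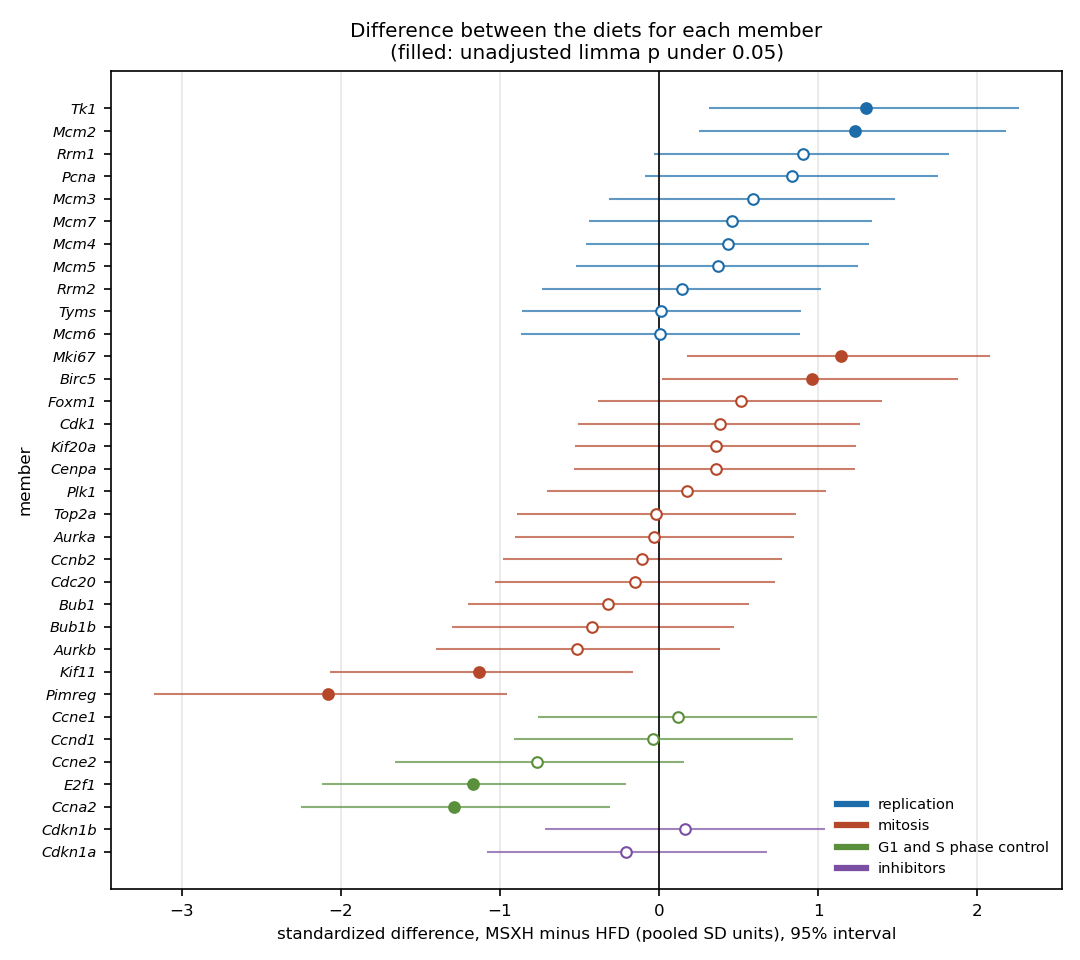
Standardized difference, MSXH minus HFD in pooled SD units (horizontal axis), with its 95% interval for each of the 34 genes (rows, coloured by role and ordered within it); filled points have an unadjusted limma p under 0.05. All 11 replication points lie at or right of 0, from 0.00847 to 1.3. The mitotic points run from -2.08 to 1.14, and no gene passed an adjusted p of 0.05.

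As deposited, 11 of 11 replication genes had a higher mean in MSXH, with a median standardized difference of 0.456. Some lay at about 0: leaving out 1 array turned the sign of Mcm6 for 10 of the arrays, of Tyms for 10 and of Rrm2 for 2, and gave 9 to 11 of 11. This became 9 of 11 with the mean of probe sets or without MSXH 4 and 6, 3 of 11 after quantile normalization and 2 of 11 after array centring. Under those scalings only 7.06% and 2.75% of all genes were higher. The counts under the scalings hinge on MSXH 4 and 6: without them both scalings gave 9 of 11. Of all genes, 54.4% were then higher with quantile normalization and 42% with centring. At an unadjusted p under 0.05 there were 2 of 11 (18.2%), beside 10.9% of all genes.

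Tk1, thymidine kinase 1 of the salvage route to dTTP (chr11:117815519-117826087), ran from 7.601086 through a median of 7.601528 to 7.601867 in HFD mice. The MSXH mice ran from 7.601467 through 7.601846 to 7.602157. The groups overlapped, with the MSXH mouse higher in 83 of 100 pairs, and the standardized difference was 1.30 (95% interval 0.314 to 2.26, limma p 0.00803, adjusted p 0.303). Tk1 has 1 probe set. Its difference fell to 0.0432 after quantile normalization and to 0.329 after array centring, and was 1.15 and 1.43 under them without MSXH 4 and 6.

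Mcm2, a subunit of the MCM2-7 helicase that unwinds the DNA (chr6:88883474-88898780), had a lowest, median and highest level of 6.501943, 6.501956 and 6.50198 in HFD. Its MSXH values were 6.501944, 6.501977 and 6.502004. The lowest mice of both groups were level and the upper MSXH mice passed the HFD range, with 82 of 100 pairs higher and a standardized difference of 1.23 (0.254 to 2.18, limma p 0.0115, adjusted p 0.32). Both Mcm2 probe sets were higher in MSXH and they varied together (Spearman rho 0.525 over 20 mice, group means removed). Under quantile normalization the difference turned to -0.559 and under array centring to -0.588.

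Rrm1, the large subunit of ribonucleotide reductase, which makes deoxynucleotides, ran from 7.156587 through 7.156608 to 7.156677 in HFD and from 7.156582 through 7.156635 to 7.156737 in MSXH. Pcna ran from 9.46951 through 9.469524 to 9.469543 in HFD and from 9.46952 through 9.469535 to 9.469549 in MSXH. Both ranges overlapped widely. The standardized differences were 0.904 (-0.0314 to 1.82) for Rrm1 and 0.838 (-0.0898 to 1.75) for Pcna, with limma p of 0.0537 and 0.0851, and both turned under the scalings of all arrays. The other MCM subunits were at 0.593 (Mcm3), 0.456 (Mcm7), 0.436 (Mcm4), 0.37 (Mcm5) and 0.00847 (Mcm6), each with an interval that held 0. Rrm2, the small subunit of the reductase, was at 0.143, and Tyms, thymidylate synthase, at 0.0146.

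Among the 16 mitotic genes 7 were higher and 9 lower in MSXH as deposited, with a median of -0.0235, and 4 of 16 (25%) were under an unadjusted p of 0.05, 2 in each direction, beside 10.9% of all genes. After quantile normalization or centring of all arrays 0 of 16 were higher, where 7.06% and 2.75% of all genes were. Without MSXH 4 and 6 these became 9 of 16 and 6 of 16, beside 54.4% and 42% of all genes.

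Pimreg, a regulator of the metaphase to anaphase step (chr11:72042428-72047372), had the smallest p of the 34 genes. Its HFD mice ran from 6.797531 through 6.797556 to 6.797583 and its MSXH mice from 6.797468 through 6.797517 to 6.797548. The groups overlapped at their edges only, with the MSXH mouse lower in 95 of 100 pairs. The standardized difference was -2.08 (-3.17 to -0.955, limma p 0.000153), and its adjusted p of 0.142 did not pass. Leaving out each array in turn gave -2.42 to -1.97 with a smallest adjusted p of 0.0939. Without MSXH 4 and 6 together, quantile normalization turned it to 0.909. Pimreg has 1 probe set.

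Kif11, the kinesin that pushes the spindle poles apart, was also lower in MSXH. It ran from 6.094602 through 6.094615 to 6.094628 in HFD and from 6.094574 through 6.094603 to 6.094633 in MSXH, where mouse 9 held the highest value of all 20. The standardized difference was -1.13 (-2.07 to -0.166, limma p 0.0189, adjusted p 0.362). The other 2 probe sets of Kif11 were higher in MSXH, and the 3 did not vary together (rho from -0.475 to 0.116).

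Mki67, the proliferation marker Ki-67 that coats mitotic chromosomes, was higher in MSXH. Its values were 6.247057, 6.247074 and 6.247095 (lowest, median, highest) in HFD and 6.247069, 6.247087 and 6.247103 in MSXH. Most of both ranges overlapped, and the MSXH mouse was higher in 79 of 100 pairs. The standardized difference was 1.14 (0.176 to 2.08, limma p 0.018, adjusted p 0.357). Birc5, survivin of the chromosomal passenger complex, ran from 6.017471 through 6.017492 to 6.017517 in HFD and from 6.017476 through 6.017505 to 6.017525 in MSXH. Its standardized difference was 0.96 (0.0178 to 1.88, limma p 0.0418), and without HFD 5 its p was 0.0824. Mki67 and Birc5 turned to -0.674 and -0.479 after quantile normalization and to -0.621 and -0.603 after centring. The promoters of Mki67 and Kif11 both hold CHR and CCAAT letters. By the probe sets that stand for them, the 2 genes lay on opposite sides of 0 as deposited. The other 2 probe sets of Kif11, at 0.421 and 0.195, lay on the same side as Mki67. The difference between the 2 genes was not tested.

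The other mitotic genes all had intervals that held 0. Foxm1, the transcription factor of the mitotic genes, was at 0.518, Cdk1, the mitotic kinase, at 0.38, Kif20a at 0.359 and Cenpa, the histone variant of centromeres, at 0.355. Plk1, polo-like kinase 1, was at 0.176, Top2a, which untangles DNA, at -0.0163, and Aurka, a spindle pole kinase, at -0.0307. Ccnb2, cyclin B2, was at -0.104, Cdc20 at -0.154, the checkpoint kinase Bub1 at -0.32, its relative Bub1b at -0.419, and Aurkb, the kinase of the passenger complex, at -0.515.

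Of the 5 genes of G1 and S phase control, 1 was higher in MSXH (0 to 2 when 1 array was left out) and 2 were under an unadjusted p of 0.05, both lower. Of all genes, 54.7% were higher, 10.9% were under 0.05, and 4.31% were under 0.05 and lower. With the mean of probe sets 0 of 5 were higher and 0 of 5 were under 0.05, beside 53.9% and 11% of all genes. Ccna2, cyclin A2 of S phase and G2 (chr3:36564865-36573038), ran from 6.782545 through 6.782552 to 6.782562 in HFD and from 6.782536 through 6.782543 to 6.782557 in MSXH. The groups overlapped, with the MSXH mouse lower in 83 of 100 pairs, and the standardized difference was -1.29 (-2.25 to -0.306, limma p 0.0094, adjusted p 0.311). The other probe set of Ccna2 was at -0.0355 (-0.912 to 0.842), and the mean of both was at -0.481. E2f1, an activator E2F factor, ran from 6.892177 through 6.892184 to 6.892189 in HFD and from 6.892171 through 6.892179 to 6.892184 in MSXH. Its standardized difference was -1.17 (-2.12 to -0.205, limma p 0.0196, adjusted p 0.367); its other 2 probe sets were at -0.463 and -0.307, both with intervals that held 0, and the 3 did not vary together (rho from -0.247 to 0). After centring without MSXH 4 and 6, Ccna2 was at -0.269 and E2f1 at -0.196. Ccne2 was at -0.764 (-1.66 to 0.157) and Ccnd1, the cyclin D1 that opens G1, at -0.0374 (-0.914 to 0.84). Ccne1, cyclin E1, was at 0.118 (-0.761 to 0.994), and its second probe set at -1.02 with a probe set p of 0.0339.

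**Figure D3:**
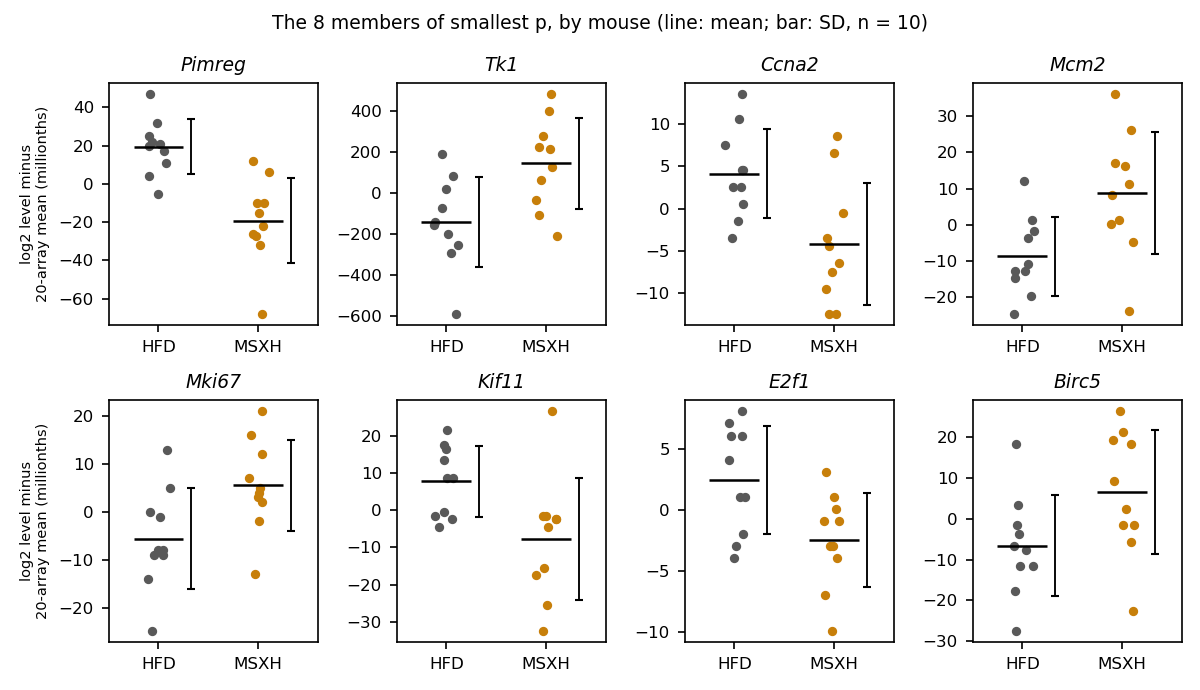
The log2 level of each mouse minus the mean over 20 arrays, in millionths (vertical axis; each panel has its own scale), for the 8 genes of smallest p, by diet. Each point is a mouse, the line is the group mean and the bar its SD (n = 10). Groups overlap in every panel, and overlap is smallest for Pimreg, where the MSXH mouse was lower in 95 of 100 pairs.

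The inhibitors did not separate the diets. Cdkn1a (chr17:29090979-29100722) ran from 7.599019 through a median of 7.783296 to 7.826579 in HFD and from 7.595314 through 7.786174 to 7.843801 in MSXH. The ranges nearly coincided, and the standardized difference was -0.206 (-1.08 to 0.676, limma p 0.645). Cdkn1b ran from 8.222406 through 8.222426 to 8.22247 in HFD and from 8.222404 through 8.222432 to 8.222493 in MSXH, with a standardized difference of 0.163 (-0.717 to 1.04, limma p 0.716). Both intervals still hold differences of more than 0.6 SD in either direction.

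Cdkn1a stood out by its spread between mice within both diets. Its SD over the 20 mice was 0.0863, at the 99.8th percentile of all genes, and its other probe set ranked the mice the same way (rho 0.989). Rrm2 followed with an SD of 0.00215 (98.0th percentile), then Tk1 with 0.000258 (93.3) and Ccnd1 with 0.000257 (93.2). No other of the 34 genes had an SD above 0.0001. The least variable were Top2a (1.8e-06, percentile 1.7) and Foxm1 (percentile 10.8).

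The mice fell apart at a gap in Cdkn1a. HFD 3 was at 7.599, HFD 5 at 7.643, MSXH 9 at 7.595, MSXH 10 at 7.627, MSXH 5 at 7.634 and MSXH 1 at 7.67. The other 14 mice were at 7.749 or above. This gap of 0.079 is 31.8% of the whole range of 0.248, and the next widest gap was 0.0281. The lower 6 thus came from both diets, 2 HFD and 4 MSXH mice. They were also the 6 highest mice in Ccnd1 and the 6 highest in Cenpa, and 5 of them were among the 6 lowest in Rrm2. In Rrm2, HFD 3 and HFD 5 were lowest of all, at 6.618357 and 6.618453, and HFD 9 was highest at 6.626167. In Ccnd1, HFD 5 was highest at 7.418739 and HFD 8 lowest at 7.417833. Because of the gap no correlation of another gene with Cdkn1a is given over all 20 mice.

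**Figure D4:**
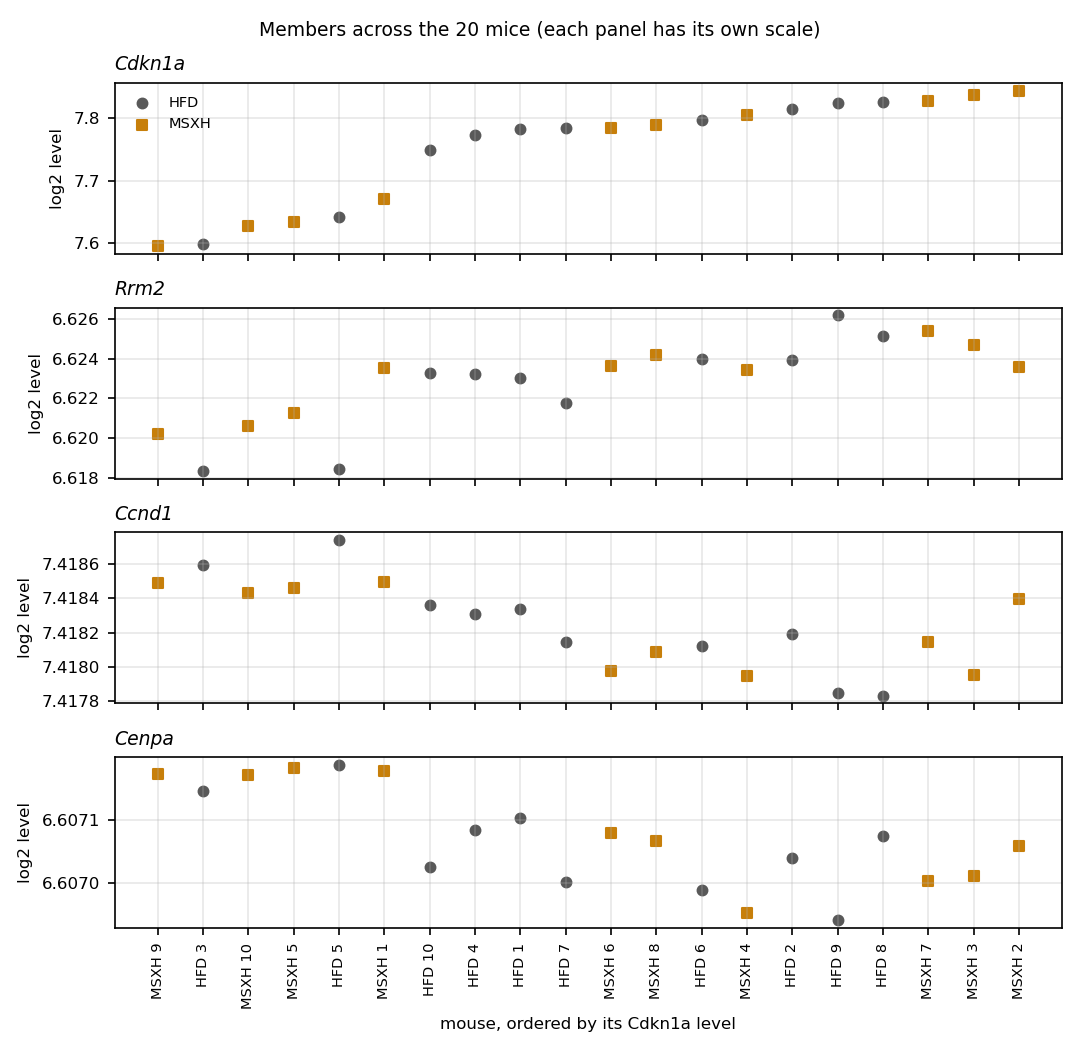
Log2 level (vertical axis; each panel has its own scale) of Cdkn1a, Rrm2, Ccnd1 and Cenpa in each of the 20 mice, ordered by Cdkn1a along the horizontal axis, with circles for HFD and squares for MSXH. The 6 mice left of the gap in Cdkn1a, between 7.67 and 7.749, are the 6 highest in Ccnd1 and Cenpa, and both diets lie on each side.

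Within the 14 mice above the gap, Cdkn1a was set against each of the 33 other genes. Birc5 gave Pearson r 0.674 and rho 0.741 (permutation p 0.00939 and 0.00322, adjusted 0.254 and 0.0827; r 0.604 without the 2 farthest mice). Pcna gave r 0.606 and rho 0.719 (permutation p 0.0225 and 0.00501, adjusted 0.254 and 0.0827; r 0.479 without them). Rrm2 gave r 0.601 and rho 0.692 (permutation p 0.0242 and 0.00789, adjusted 0.254 and 0.0868; r 0.77 without them). None of the 33 passed an adjusted p of 0.05. Ccnd1 and Cenpa, whose order over all mice mirrored that of Cdkn1a, gave rho -0.323 and -0.319 there (permutation p 0.259 and 0.264), so the mirrored order was seen between the sides and not shown within them. Within the 6 mice below the gap, rho with Cdkn1a was 0.543 for Rrm2, 0.257 for Ccnd1 and 0.657 for Cenpa (exact permutation p 0.297, 0.658 and 0.175).

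Over all 561 pairs of the 34 genes, with group means removed, p-values came from permuting the mice within each diet (100000 permutations, two-sided) and were adjusted over all pairs. Leaving aside pairs with Cdkn1a, 2 pairs had an adjusted p of rho under 0.05, both with Ccnd1. Further pairs passed by r only. They were Mcm5 with Ccnd1 (r 0.713, adjusted permutation p 0.0196 for r and 0.0526 for rho) and with Cenpa (r 0.714, 0.0344 and 0.114). The others were Rrm2 with Cenpa (r -0.741, 0.02 and 0.0837) and Mcm2 with Mcm4 (r 0.643, 0.0499 and 0.0791). The 2 pairs that passed by rho follow, first over the mice of both sides of the Cdkn1a gap. Cenpa and Ccnd1 varied together, with r 0.798 and rho 0.768 (permutation p 8e-05 and 0.00027, adjusted 0.0112 and 0.0314; r 0.736 without the 2 farthest mice; rho 0.721 within HFD and 0.818 within MSXH). Rrm2 and Ccnd1 ran opposite, with r -0.811 and rho -0.767 (permutation p 8e-05 and 0.00019, adjusted 0.0112 and 0.0314; r -0.716 without the 2 farthest; rho -0.818 within HFD and -0.539 within MSXH). On the sides of the gap, rho was 0.358 over the 14 mice and 0.257 over the 6 for Cenpa with Ccnd1. For Rrm2 with Ccnd1 it was -0.582 and -0.543. Both pairs thus kept their sign within the sides, with a weaker rho. The 6 mice below the gap were the 6 highest in Ccnd1 and in Cenpa, and 5 of them were among the 6 lowest in Rrm2. The p-values of pairs among these genes therefore include the split between the sides. No p-value within the sides is given for them, so neither relation is shown within the sides. The 3 probe sets of Ccnd1 moved together (rho 0.875 to 0.947), as did those of Rrm2 (0.471 to 0.874). Those of Cenpa did so less (0.28 to 0.365).

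These few genes vary with much else in the liver. Of the 18192 other genes, 9.5% had an absolute rho above 0.6 with Ccnd1, 8.74% with Cenpa and 8.61% with Rrm2, where 2.24% of all gene pairs lie above it. All 7 macrophage and Kupffer cell markers had a positive rho with Ccnd1 (0.42 to 0.737) and a negative one with Rrm2 (-0.519 to -0.128). The summed level of these 7 ran from 61.243 to 61.263 in HFD and from 61.241 to 61.268 in MSXH, and none lay under the array median. The lymphocyte and stellate lists leaned the same way, and others did not. Of 8 T and B lymphocyte markers, 1 had a negative rho with Ccnd1 (-0.202 to 0.656) and 7 with Rrm2 (-0.535 to 0.0857). In that list 5 genes lay under every array median. Of 5 stellate markers, 1 had a negative rho with Ccnd1 (-0.251 to 0.672) and 5 with Rrm2 (-0.738 to -0.0105). Among the hepatocyte markers, rho with Ccnd1 ran from -0.812 for Cps1 to 0.265 for Ttr, and 5 of 6 were negative. Endothelial markers went both ways with Ccnd1 (-0.722 to 0.767), neutrophil markers had a median rho of 0.00602 with it, and 7 of 7 muscle markers were negative (-0.364 to -0.0887). Also negative with Ccnd1 were 2 of 2 adipocyte markers (-0.426 to -0.287) and 2 of 3 cholangiocyte markers (-0.353 to 0.274). Of 5 erythroid precursor markers 2 were negative (-0.768 to 0.615). All these rho run over the mice of both sides of the Cdkn1a gap. The 6 mice below it were the 6 highest in Ccnd1 and in Cenpa, and 5 of them were among the 6 lowest in Rrm2. No rho with other genes or markers is given here within the sides, so a graded relation within them is not shown. The part of cell composition in these relations was not tested.

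As a group the 34 genes varied together only weakly between mice. The median rho was 0.0406 over the 561 pairs (0.0211 without MSXH 9), beside 0.002 over all pairs of genes, and 3.03% of the pairs had an absolute rho above 0.6, beside 2.24% of all pairs. By role the median was 0.101 for replication, 0.0504 for mitosis and 0.0113 for G1 and S phase control. The mitotic genes, most of which share the CHR and CCAAT letters, had 0 of 120 pairs beyond 0.6, and the replication genes had 3 of 55. After scaling, the median rho of the 34 genes was 0.624 (quantile normalization) and 0.889 (array centring), beside 0.603 and 0.91 over all genes.

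Probe sets of the same gene bear on how far such small differences can be read. Of the 24 genes with several probe sets, 14 had all of them on the same side of 0 between the diets and 10 did not. Over the 70 pairs of probe sets the median rho between mice was 0.209, beside 0.197 over 30372 such pairs of all genes, and 12 pairs (17.1%) were above 0.5, beside 21.9%. Cdkn1a, Ccnd1, Rrm2, Mcm7 (0.456 to 0.827) and Mcm2 were the genes whose probe sets ranked mice most alike. For Foxm1 (-0.131 to 0.28), E2f1, Cdc20 (-0.177 to 0.0526) and Bub1b (-0.0316 to 0.0812) they hardly did. Over all probe sets, 46 of 78 were higher in MSXH and 12 of 78 had an unadjusted limma p under 0.05, 6 in each direction, beside 10.7% of all probe sets, and 0 passed the adjustment. Mcm3 shows the disagreement: the probe set that stands for it was at 0.593 and another at -1.32 (p 0.00776). For Bub1b these were -0.419 and 1.36 (p 0.00617). For Mcm7 the 4 probe sets were all higher in MSXH, 1 of them at 0.976 (p 0.0391). Probe sets whose names end in _s_at or _x_at, among them those of Mcm2, Mcm3, Mcm5, Mcm7, Rrm2 and Cdc20 that stand for the gene, were designed with probes that can match several transcripts.

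**Figure D5:**
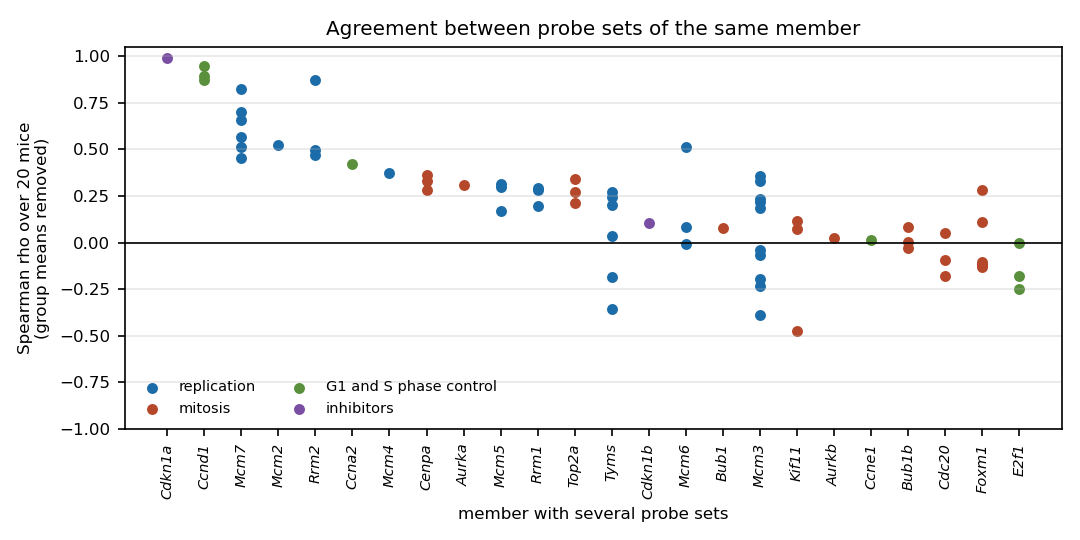
Spearman rho over 20 mice, group means removed (vertical axis), between each pair of probe sets of the same gene, for the 24 genes with several (horizontal axis, ordered by median, coloured by role). Cdkn1a (0.989) and Ccnd1 (0.875 to 0.947) are at the top, and most mitotic genes lie near 0.

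Other genes of the same pathways, none of them among the 34, gave 0 genes past the adjusted p as well. The shares of all genes to set beside their counts are 54.7% higher in MSXH and 10.9% at an unadjusted limma p under 0.05, 6.58% higher and 4.31% lower. Of 38 measured genes of replication licensing and the fork, 26 (68.4%) were higher in MSXH and 7 (18.4%) were at an unadjusted p under 0.05, all 7 higher. Their median standardized difference was 0.308, and the leading genes were Rfc2, a clamp loader subunit (1.27, 0.287 to 2.22), and Prim1, the small primase subunit (1.16, 0.195 to 2.1). Of 34 genes of the spindle, kinetochore and checkpoint, 22 (64.7%) were higher, and 4 higher and 3 lower genes were under 0.05, led by the kinase Melk (-1.29) and the kinetochore subunit Spc24 (1.28). Of 25 genes of G1 control, RB and E2F, 8 (32%) were higher and 0 were under 0.05 by limma, with E2f3 (-0.866) and the pocket protein gene Rbl2 (0.801) leading. Of 18 other inhibitors and p53 targets, 14 (77.8%) were higher and 2 (11.1%) were under 0.05. These were Gadd45a, a stress gene that binds PCNA (1.61, 0.576 to 2.62, limma p 0.00163, adjusted p 0.215, higher in 90 of 100 pairs), and Ccng1, cyclin G1 (1.18, 0.214 to 2.13, limma p 0.0143). Gadd45a, at 6.228, and Melk, at 5.79, lay under every array median. In Ccng1, MSXH 4 stood apart from the rest of its group at 8.43132 (next 8.428774). After array centring of all arrays 0 of the 38 licensing genes and 4 of the 18 other inhibitors were higher, beside 2.75% of all genes. Without MSXH 4 and 6, centring left 26 of 38 and 12 of 18 higher, beside 42% of all genes.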

How the data were processed

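Liver total RNA of 20 mice was measured on Affymetrix 3' arrays, 1 for each animal (labels). The range of the values which the authors deposited is that of log2 probe set levels; which base they used is not stated. How arrays were scanned, corrected for background, normalized and summarized is not given in the sources used here. Values were used as deposited. Probe sets were named with the platform's gene table; control probe sets and those with several symbols were left out, 2 of them of these genes. Gene IDs of 34 of 34 genes were found in RefSeq's GRCm38.p6 table.

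The test was limma 3.58.1 in R 4.3.3, lmFit and eBayes with a trend, two-sided, with 18 residual and 0.704 prior degrees of freedom and the Benjamini-Hochberg adjustment over all 18193 genes, or 34945 probe sets. Intervals are noncentral t intervals at 95%. The fit was tested on simulated data. Correlations and figures used Python 3.11.15, numpy 2.4.6, scipy 1.17.1, pandas 2.3.3 and matplotlib 3.10.9. The genes, lists, tests and rules were chosen with earlier results of these data known. The rule named, by role, the 4 genes of smallest p (both inhibitors) and 2 per list of other genes; all others named, Mcm5's promoter and the choice of promoters shown were chosen after values were seen. Alternatives were array centring, quantile normalization, the mean of probe sets, a block by replicate number, genes above the median gene only, eBayes without trend, leaving out each array, and leaving out MSXH 4 and 6, known from earlier results to hold muscle transcripts. Leaving out these 2 together with a scaling was added after seeing the data.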

Additional observations from a re-analysis of the deposited data

Results flagged for a closer look

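In each of the 34 genes and the 8 named genes of the other lists, the highest and lowest mouse of each diet were compared with the rest by Dixon's gap test for 10 values at 95%. Of 84 groups 6 stood out, where chance gives about 1 in 20. The mouse that stood out was the highest of its group in each: Mcm6 in HFD 3 at 6.283524 (next 6.283491), Rrm1 in HFD 4 at 7.156677 (next 7.156634) and Aurka in HFD 5 at 6.29747 (next 6.297454). The others were Kif11 in MSXH 9 at 6.094633 (next 6.094605), Kif20a in HFD 8 at 5.821125 (next 5.821115) and Ccng1 in MSXH 4 at 8.43132 (next 8.428774). Each fell on a different mouse. MSXH 4 is also one of the 2 mice with high muscle transcripts.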

How the results depend on the processing

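The count of the 34 genes past an adjusted p was 0 under every alternative run. The 8 genes at an unadjusted p under 0.05 became 1 under quantile normalization, 0 under array centring, 4 with the mean of probe sets, and, without MSXH 4 and 6, 2 with centring and 3 with quantile normalization. In that order, the shares of all genes were 4.11%, 1.15%, 11%, 1.96% and 11.6%, beside 10.9% as deposited. Among genes above the median gene, 1 of 9 was under 0.05 and 6 of 9 were higher in MSXH, beside 10.8% and 60.4% of all such genes. The 20 genes higher became 4 and 2 under quantile normalization and centring, their median -0.59 and -0.652, the 12 probe sets 3 and 0, and the median rho 0.624 and 0.889. Of all genes 7.06% and 2.75% were higher under these scalings. Their median difference was -0.553 and -0.661, and their median rho 0.603 and 0.91. For the counts of probe sets, under the scalings or with an array left out, no share of all probe sets is given here. Under quantile normalization Mcm2 turned to -0.559, Rrm1 to -0.22, Pcna to -0.526, Mki67 to -0.674, Birc5 to -0.479, Ccne1 to -0.771 and Cdkn1b to -0.0967. Under centring they turned to -0.588 (Mcm2), -0.517 (Rrm1), -0.621 (Pcna and Mki67), -0.603 (Birc5), -0.648 (Ccne1) and -0.647 (Cdkn1b). Quantile normalization without MSXH 4 and 6 turned Pimreg to 0.909, Mki67 to -0.224, Kif11 to 0.0747 and Ccne1 to -0.536, and the mean of probe sets turned Ccne1 to -0.0545. The cause was not tested. With a replicate block 7 genes were under 0.05, beside 9.98% of all genes. Mice that share a number correlated from -0.265 to 0.165. Mice of different numbers were not set beside them, so whether the numbers pair mice is not settled here. Leaving out each array in turn gave 7 to 10 genes under 0.05, 17 to 24 higher and 9 to 14 probe sets under 0.05, a median difference of 0.00474 to 0.231 and a median rho of 0.0211 to 0.0509. Across these runs 1667 to 2221 of all 18193 genes were under an unadjusted p of 0.05. Of all genes, 3 passed the adjusted p without HFD 3. With the mean of probe sets, or without HFD 6, HFD 9, MSXH 2 or MSXH 3, 1 gene passed in each run. None of these genes was among the 34. Signal over background was not analysed here, which limits what can be read of the genes under the array median.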
